A study of Macaca radiata with 4 samples.

Results

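Aromatase and the 17beta-hydroxysteroid dehydrogenases form the last steps of estradiol synthesis, and their transcripts were followed in the corpus luteum of the bonnet monkey (Macaca radiata) after LH had been withdrawn and given back. The members were every probe set that the array's annotation assigned to CYP19A1, HSD17B1, HSD17B4, HSD17B7 or HSD17B12 alone. These came to 8 of the 52865 probe sets on the array, covering 4 of the 5 genes and 4 of the 14132 genes with a symbol of their own there: 1 for CYP19A1, 1 for HSD17B1, 3 for HSD17B4 and 3 for HSD17B7. HSD17B12 was matched to 0 probe sets in the annotation used here and was not analysed. All animals were females given CET, an agent that per the labels stops the secretion of the animal's own LH, at 150 µg/kg of body weight on luteal phase day 7. After 24 h each received an intravenous injection of rhLH, a recombinant LH, at 20 IU/kg, or of 0.5 ml PBS as the control, and the corpus luteum was taken 8 h later. Each group had 2 arrays, PBS replicates 1 and 2 and rhLH replicates 3 and 4, and the labels describe 2 animals per group without tying an array to an animal. The p-values below therefore measure the spread between these arrays, which may be partly technical. Both groups carried the CET treatment, and animals with undisturbed LH secretion were not analysed here, so each difference is between LH given back and LH still withdrawn.

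Aromatase, the product of CYP19A1, turns androgens into estrogens in the endoplasmic reticulum. The 17beta-hydroxysteroid dehydrogenases then set the balance between the weak estrogen estrone and the strong estrogen estradiol. HSD17B1 and HSD17B7 run mainly towards estradiol, and HSD17B7 also serves as a reductase in cholesterol synthesis. HSD17B4 is a peroxisomal enzyme that oxidises estradiol to estrone and takes part in the beta-oxidation of fatty acids. In primates the luteinised granulosa cells of the corpus luteum are the main site of aromatase, and LH is the hormone that maintains luteal steroid synthesis.

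Levels were MAS5 signals, a linear measure of brightness per probe set, and differences were taken on the log2(signal + 16) scale. PBS replicate 1 stood apart from the other arrays, with Pearson correlations of 0.752 to 0.780 with them over the kept probe sets, against up to 0.947 among the others. On it the probe set for the 5' end of actin had a signal of 2017, against 31304 to 36894 on the other 3 arrays, and that for the 5' end of GAPDH had 6447, against 21566 to 28699. The 3' probe set of actin was also lower on it, at 22677 against 48109.8 to 54943, as was that of GAPDH, at 20846 against 45825 to 54052. The EF1a controls were lower too, at 22729 against 51168 to 53452 for the 5' end and 24095.5 against 45248 to 50740 for the 3' end. For all these controls the rhLH mean lay within 0.22 of PBS replicate 2 on the log2 scale, so each member is given against both PBS arrays. The tissue label was borne out by STAR and HSD3B2, which serve progesterone synthesis and ranked above at least 99.7% of probe sets on every array.

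CYP19A1 had higher values on each rhLH array than on either PBS array. The CYP19A1 probe set (NCBI Gene 678697) gave signals of 1884 and 7431 on PBS replicates 1 and 2 and of 12669.9 and 20847 on rhLH replicates 3 and 4. All 4 values differed widely, and the PBS arrays were further apart than the rhLH arrays (1.97 against 0.72 on the log2 scale). Its log2 difference was 3.10 against PBS replicate 1, an 8.56-fold difference, and 1.13 against PBS replicate 2, a 2.19-fold difference. Against both together it was 2.11 (95% interval 0.42 to 3.80, limma), and the closest pair of a PBS and an rhLH array was 0.77 apart. Within each array the CYP19A1 signal ranked above 91.9% and 98.2% of probe sets on the PBS arrays and above 99.1% and 99.6% on the rhLH arrays. In bulk tissue, fewer cells of a type and less RNA per cell cannot be told apart. PBS replicate 1 was low for the 5' and 3' controls as well as for CYP19A1, and their part in the larger of these differences was not tested. The smaller difference was measured against PBS replicate 2, whose actin and GAPDH signals were all slightly above the rhLH mean.

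HSD17B1, the enzyme that converts estrone to estradiol in granulosa cells, was dim on the PBS arrays and brighter on the rhLH arrays. The HSD17B1 probe set (MmugDNA.19417.1.S1_at, NCBI Gene 710392) had signals of 67.1 and 51.4 with PBS and of 273 and 319 with rhLH. The values within each group were close together and the groups did not overlap. The log2 difference was 1.91 relative to PBS replicate 1 and 2.21 relative to PBS replicate 2, so unlike that of CYP19A1 it was not larger against the array that stood apart. Against both together it was 2.06 (95% interval 0.73 to 3.39, limma). In rank, HSD17B1 stood above 28.1% and 27.2% of probe sets on the PBS arrays and above 64.9% and 67.5% on the rhLH arrays. Detection calls were not used here. Both PBS signals were under 90.7, the level that a probe set's average over the arrays had to exceed to be tested, so HSD17B1 was tested only because of its rhLH values. The size of its difference moved with the pseudocount, from 1.55 with 64 to 2.31 with 1.

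HSD17B7 was higher with rhLH on a pair of its probe sets and close to equal on the last. The brightest, called set 1 here (MmugDNA.35206.1.S1_at, NCBI Gene 720399), had signals of 2015 and 2412 with PBS and of 5905 and 3759 with rhLH. Set 2 of HSD17B7 (MmugDNA.35206.1.S1_s_at) had signals of 353 and 464 with PBS and of 1789 and 1081 with rhLH. In both sets the PBS arrays were close together, the rhLH arrays lay above them, and rhLH replicate 3 was the highest. The log2 differences of set 1 were 1.22 and 0.96 against PBS replicates 1 and 2, and 1.09 against both (95% interval 0.21 to 1.97, limma). Those of set 2 were 1.93 and 1.55, and 1.74 against both (95% interval 0.74 to 2.75, limma). Set 3 (MmugDNA.11013.1.S1_at) had signals of 636 and 572 with PBS and of 727 and 662 with rhLH. Its rhLH values were both higher, but by 0.05 on the log2 scale for the nearest arrays, and its difference of 0.20 had an interval from −0.66 to 1.05 (limma). The probe sets assigned to this gene thus did not give the same size of difference, and sets 1 and 2, whose names share a stem, may read the same stretch of the transcript. The suffix of set 2 marks probes that can match more than 1 transcript in the array maker's naming.

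HSD17B4, which oxidises estradiol and shortens fatty acids in peroxisomes, showed no difference beyond the spread of the arrays. Its brightest probe set, set 1 (MmuSTS.2527.1.S1_at, NCBI Gene 698369), had signals of 5493 and 4670 with PBS and of 3967 and 4485 with rhLH. Both rhLH values were lower, but the nearest arrays of the groups differed by less than those within either group, and the log2 difference of −0.26 had an interval from −1.03 to 0.50 (limma). Set 2, whose suffix also marks probes that can match several transcripts, had signals of 756 and 1288 with PBS and of 1085 and 1242 with rhLH, and the groups overlapped. Its log2 difference was 0.61 relative to PBS replicate 1 and −0.15 relative to PBS replicate 2, and 0.23 against both (95% interval −0.72 to 1.19, limma). Set 3 (MmugDNA.29085.1.S1_at) was dim on all arrays, at 48.4 and 84.7 with PBS and at 21.7 and 62.0 with rhLH, and was not tested. These intervals still include differences of 2-fold downwards for set 1 and upwards for set 2.

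**Figure D1:**
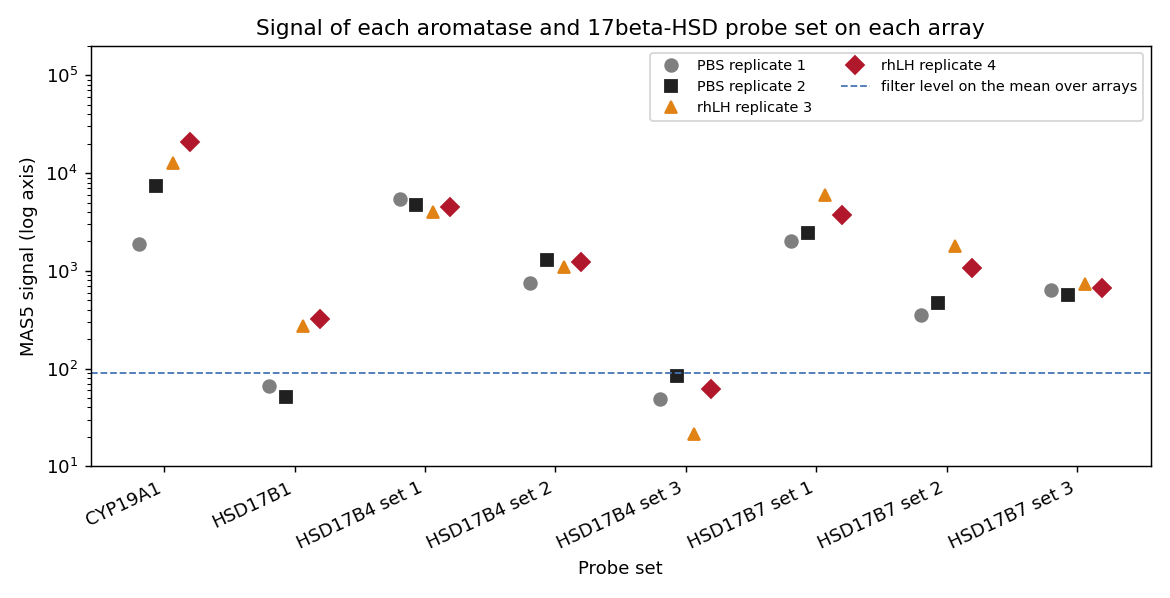
MAS5 signal (log axis) of the 8 probe sets of CYP19A1, HSD17B1, HSD17B4 and HSD17B7 on each of the 4 arrays, with sets of a gene numbered from the brightest and the dashed line at 90.7, the level that the average over arrays had to exceed for testing. Both rhLH arrays lie above both PBS arrays for 5 probe sets, HSD17B4 set 1 lies below, and HSD17B4 sets 2 and 3 overlap; levels of different probe sets are not comparable.

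Of all 8 member probe sets, 5 had both rhLH arrays above both PBS arrays, where 13.3% of all non-control probe sets did (14.4% of kept). For 1 both lay below, where 19.5% did (17.7% of kept). The 5 were those of CYP19A1 and HSD17B1 and the 3 of HSD17B7, and probe sets of the same gene are not independent. Read by the brightest kept probe set, CYP19A1, HSD17B1 and HSD17B7 lay above and HSD17B4 below, where 16.3% and 16.1% of kept genes did. By a stricter rule every rhLH array had to be at least 2-fold from every PBS array. Then 2 member probe sets were higher, HSD17B1 and HSD17B7 set 2, and 0 were lower, against 0.716% and 1.51% of all non-control probe sets. Over the 31659 kept probe sets that rule gave 109 higher and 155 lower (0.344% and 0.49%), a share of 41.3% higher, which was 60.8% with the arrays centred on their medians and 56.1% after quantile normalization. Centring moved the median difference of all kept probe sets from −0.04 to 0.19, CYP19A1 to 2.34, HSD17B1 to 2.28, HSD17B7 sets 1 and 2 to 1.32 and 1.97, and HSD17B4 set 1 to −0.036. Between the rhLH arrays, replicate 4 was the higher for 5 of the 8 member probe sets and for 49% of kept genes.

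No member passed the limma test. Of the 7 kept, HSD17B1 had passed the filter only because of its rhLH values. Among the 7, 4 had an unadjusted limma p under 0.05: 0.0055 for HSD17B7 set 2, 0.0093 for HSD17B1, 0.0224 for CYP19A1 and 0.0235 for HSD17B7 set 1. Such p-values were given to 278 higher and 363 lower probe sets (0.878% and 1.15%), while 0 probe sets in either direction passed after adjustment (0% and 0%), and the limma adjusted p was 0.919 for these 4 and for HSD17B4 set 1, 0.921 for HSD17B4 set 2 and 0.923 for HSD17B7 set 3. An exact permutation test of 2 arrays against 2 cannot give a two-sided p under 0.333, and none was run. With PBS replicate 1 as the sole control, limma gave adjusted p-values of 0.0028 for CYP19A1, 0.0122 for HSD17B7 set 2, 0.0197 for HSD17B1 and 0.0301 for HSD17B7 set 1. These are the lowest values over the alternatives, which reached 1 for each of these 4 probe sets. In that setting 13.1% of kept probe sets were called higher and 12.2% lower, and the lone array was assumed to vary like the rhLH arrays. With PBS replicate 2 as the sole control 0 probe sets were called (0%), and the limma adjusted p was 0.272 for HSD17B1, 0.403 for HSD17B7 set 2, 0.511 for CYP19A1 and 0.636 for HSD17B7 set 1.

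**Figure D2:**
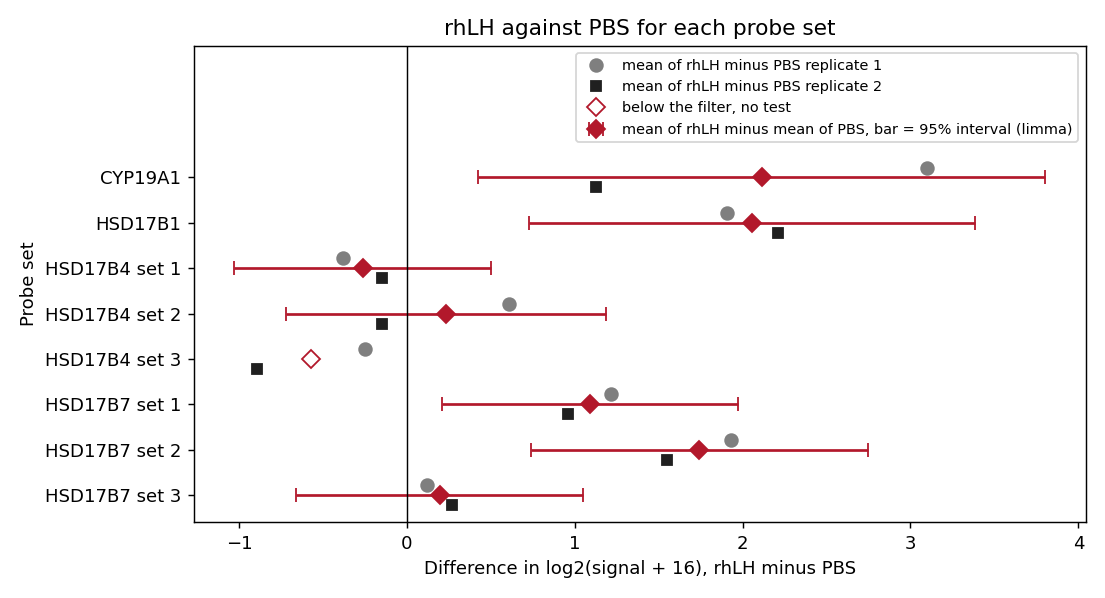
Difference in log2(signal + 16) between rhLH and PBS for each probe set, against both PBS arrays (diamond, bar = 95% interval from limma), PBS replicate 1 (circle) and PBS replicate 2 (square). The 2 single-array differences lie 1.97 apart for CYP19A1 and closer for every other probe set. The intervals of CYP19A1, HSD17B1 and HSD17B7 sets 1 and 2 lie above 0, and HSD17B1 passed the filter only because of its rhLH values.

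The differences of the members were placed among those of all kept probe sets, as a description. The range from the 5th to the 95th percentile of the kept probe sets was −1.90 to 1.93 on the log2 scale against PBS replicate 1, and −0.83 to 0.84 against PBS replicate 2. Of the kept probe sets, 1% had a larger difference than CYP19A1 against PBS replicate 1 and 2.8% against PBS replicate 2. For HSD17B1 these shares were 5.17% and 0.246%, for HSD17B7 set 2 they were 4.99% and 1.31%, and for HSD17B7 set 1 they were 12.2% and 3.89%. CYP19A1 thus stood furthest out of the members against PBS replicate 1, and HSD17B1 against PBS replicate 2. HSD17B1 was among the kept probe sets only because of its rhLH values. HSD17B7 set 3 and both kept HSD17B4 probe sets lay inside the bulk against either array, with 24.2% to 63.2% of kept probe sets above them.

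**Figure D3:**
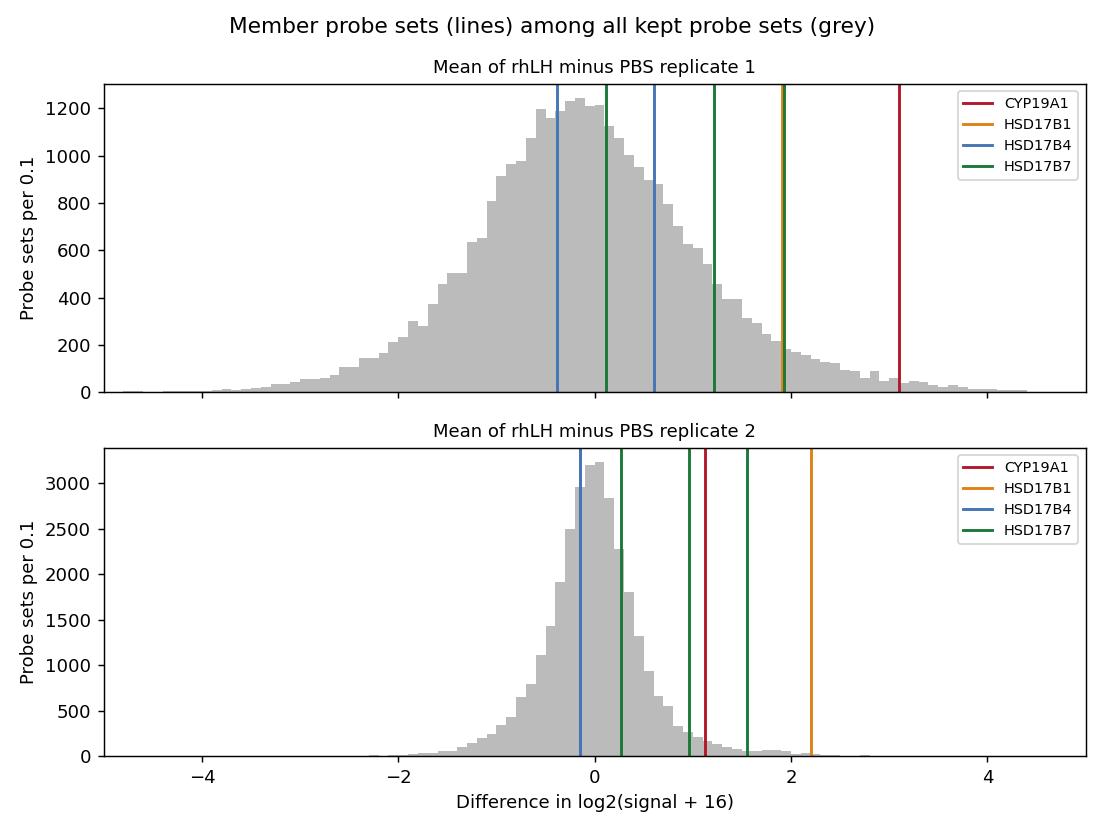
Number of kept probe sets (grey bars, 0.1 wide) by difference in log2(signal + 16), for the mean of rhLH minus PBS replicate 1 (upper panel) and minus PBS replicate 2 (lower panel), with a line for each kept member probe set. The spread is wider against PBS replicate 1, CYP19A1 lies at 3.10 and 1.13, HSD17B1 at 1.91 and 2.21, and the HSD17B4 lines in the lower panel coincide at −0.15.

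The genes of neighbouring steps were read from lists, each gene by its brightest kept probe set, and 0 of them passed the limma test. Both rhLH arrays lay above both PBS arrays for 16.3% of kept genes and below for 16.1%. Of the enzymes and carriers that act before androgens, 10 of 13 were kept, 2 lay above both PBS arrays and 0 below. Their median log2 difference was 0.82 relative to PBS replicate 1 and 0.01 relative to PBS replicate 2, where all kept genes had medians of −0.01 and −0.002. POR, which passes electrons to aromatase and other P450 enzymes, had signals of 853 and 2272 with PBS and of 2290.0 and 2322 with rhLH. Its 3 other probe sets had pooled log2 differences of −0.17 to −0.55, opposite to the 0.72 of the brightest. TSPO, a mitochondrial outer membrane protein, differed by 1.33 and 0.02 against the PBS arrays on its brightest probe set. On its other probe set both rhLH arrays lay below both PBS arrays, with differences of −0.51 and −0.65. CYP17A1, which makes the androgens that aromatase uses, differed by 1.02 relative to PBS replicate 1 and −0.93 relative to PBS replicate 2. The genes of this list above both PBS arrays were POR and HSD3B2, and HSD3B2 differed by 0.50 and 0.30. CYP17A1 and HSD3B2 are named here after their values were seen. CYP19A1 was thus higher against PBS replicate 2 while the median of the earlier steps was near 0 against that array.

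Of 15 other genes for 17beta-hydroxysteroid dehydrogenases and related enzymes, 3 were kept, with 1 above both PBS arrays and 0 below. HSD11B1, which regenerates cortisol, had signals of 17685 and 27121 with PBS and of 28255 and 27199 with rhLH. HSD17B8 differed by 0.68 and −0.17 against PBS replicates 1 and 2 and was named after its values were seen, and RDH5, a retinol dehydrogenase, by 1.14 and −0.15. HSD17B2, which oxidises estradiol to estrone, had a probe set that lay below the filter. The median of these 3 was 0.68 relative to PBS replicate 1 and −0.15 relative to PBS replicate 2.

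Of 13 genes of estrogen conjugation and breakdown, 3 were kept, with 0 above both PBS arrays and 1 below. CYP1B1, which hydroxylates estradiol, had signals of 863 and 974 with PBS and of 457 and 371 with rhLH. Its values were close within each group, and its log2 difference was −1.04 and −1.21 against PBS replicates 1 and 2 (limma adjusted p = 0.919). The 2 other CYP1B1 probe sets also had both rhLH arrays below both PBS arrays, with pooled differences of −0.58 and −0.80. CYP3A4, a broad steroid hydroxylase, differed by 0.41 and 0.82, on a probe set of a family with closely related members. The list's median was 0.41 relative to PBS replicate 1 and −0.29 relative to PBS replicate 2.

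Estrogen receptors and their partners had 9 of 15 genes kept, with 2 above and 1 below both PBS arrays. ESR2, the estrogen receptor beta, had signals of 58.4 and 115 with PBS and of 149 and 236 with rhLH. The groups did not overlap, although its level was low. Its PBS mean of 86.6 lay under the filter level of 90.7. ESR2 was therefore kept, and counted among the 2 above, only because of its rhLH values. Its log2 difference was 1.45 relative to PBS replicate 1 and 0.64 relative to PBS replicate 2. Its 2 other probe sets lay below the filter and overlapped between the groups, with pooled differences of −0.20 and −0.04. GREB1, a gene induced by estrogen, differed by 2.01 and 0.05. ESR1, the estrogen receptor alpha, had a probe set that lay below the filter. The list's median was 0.69 relative to PBS replicate 1 and 0.05 relative to PBS replicate 2.

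Among genes that regulate the aromatase gene, 17 of 22 were kept, with 2 above and 4 below both PBS arrays. NR5A2, a nuclear receptor that binds the ovarian aromatase promoter, had signals of 2545 and 3729 with PBS and of 5351 and 4229 with rhLH, a log2 difference of 0.90 and 0.35. Of its 2 other probe sets 1 also separated the groups, at 0.43 and 0.20, and the other overlapped. NR4A1, an immediate early nuclear receptor, had signals of 1633 and 3684 with PBS and of 487 and 1605 with rhLH, differences of −0.87 and −2.03. Its other probe set overlapped between the groups, at 1.52 and −2.29. The median of the list was 0.34 relative to PBS replicate 1 and −0.10 relative to PBS replicate 2.

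The lists around the other functions of the members were read in the same way. Cholesterol synthesis, which HSD17B7 serves as a reductase, had 14 of 21 genes kept, with 3 above and 1 below both PBS arrays and a median of 0.39 and 0.09. MVD, a mevalonate pathway enzyme, differed by 0.94 and 0.64, and its other probe set by 1.02 and 0.57. INSIG1, which restrains cholesterol synthesis, differed by −0.79 and −0.70 on its brightest probe set and by −0.82 and 0.56 on the other. Peroxisomal beta-oxidation, to which HSD17B4 belongs, had 9 of 20 kept, with 3 above and 0 below and a median of −0.52 and 0.17. ACOX3, a peroxisomal oxidase, differed by 0.89 and 0.83, and AMACR, a racemase of branched fatty acids, by 0.70 and 0.48. On the other kept probe set of each the groups overlapped, with differences of 0.33 and 0.42 for ACOX3 and 1.00 and −0.12 for AMACR. Fatty acid elongation, the pathway of HSD17B12, had 11 of 19 kept, with 2 above and 2 below and a median of 0.20 and −0.21. ELOVL1, an elongase, differed by 1.53 and 0.30, and HACD3, a dehydratase of the same cycle, by 2.68 and −0.21.

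**Figure D4:**
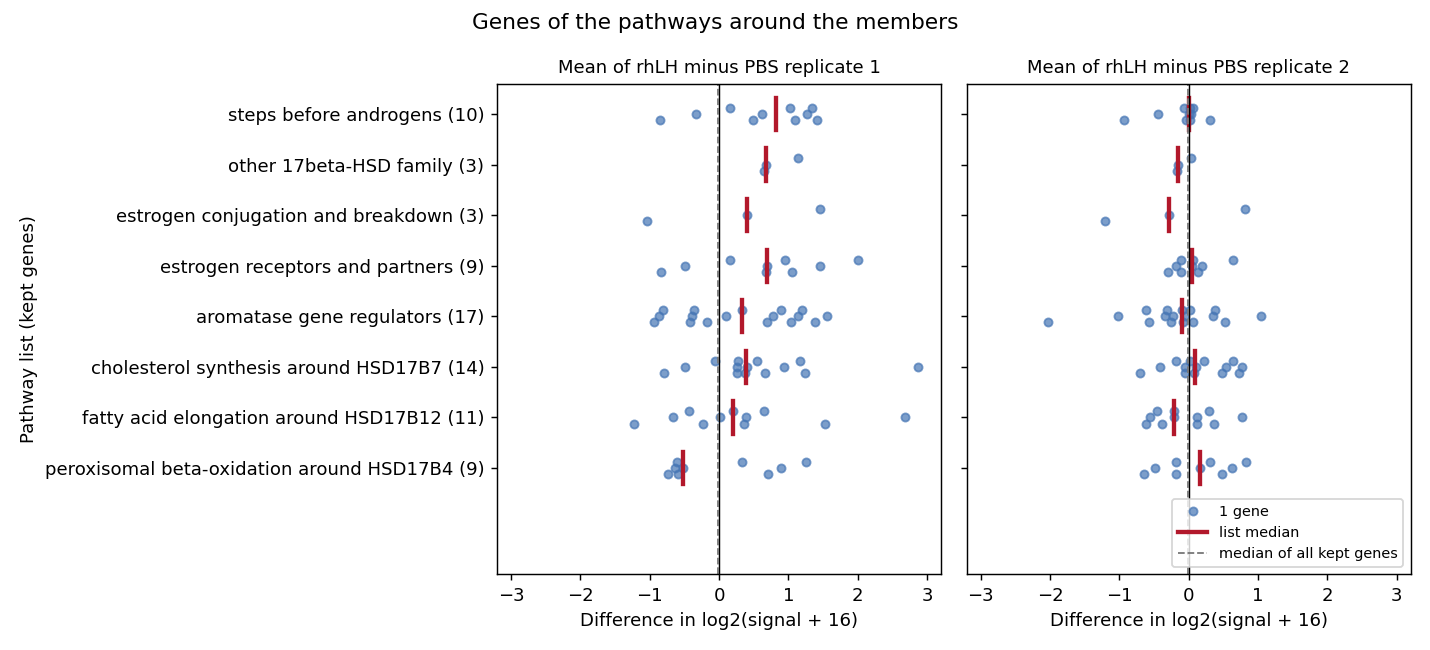
Difference in log2(signal + 16) of each kept gene (dot) in 8 pathway lists, as the mean of rhLH minus PBS replicate 1 (left) and minus PBS replicate 2 (right), with the list median (red) and the median of all kept genes (dashed); vertical scatter separates dots only. The medians of 7 lists lie at 0.20 to 0.82 in the left panel and that of peroxisomal beta-oxidation at −0.52, while all 8 lie between −0.29 and 0.17 in the right panel.

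For the brightest probe set of each gene, the 3 genes with the nearest profile over the 4 arrays were found by the root mean square difference of log2 values after each probe set's own mean was subtracted. For CYP19A1 these were TMEM200C (0.15), DEF6 (0.17) and TMC6 (0.19), the first 2 with signals of 17.2 and 10.4 on PBS replicate 1. For HSD17B1 they were PGAM5 (0.12), a probe set of FST (0.14), the gene of follistatin, and NPFFR1 (0.18). That FST probe set had signals of 309 and 307 with PBS and of 1412 and 1666 with rhLH. The PBS means of TMEM200C, DEF6, PGAM5 and NPFFR1 lay under the filter level. Like HSD17B1, these genes were therefore among the kept probe sets only because of their rhLH values. For HSD17B7 they were GTF2H4 (0.03), SLC5A2 (0.04) and HSPH1 (0.04), and for HSD17B4 they were LOC695121, PUM2 and WDR41 (0.01 each). Among all kept probe sets outside the members, 126 lay within 0.5 of HSD17B1 and 259 within 0.5 of CYP19A1, against 5290 for HSD17B7 and 18852 for HSD17B4. Profiles like those of HSD17B1 and CYP19A1 were less common on these arrays than the flat one of HSD17B4. With a fixed limit these counts largely follow from the size of the differences already given. Probe sets kept only because of their rhLH values were not separated out in them.

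**Figure D5:**
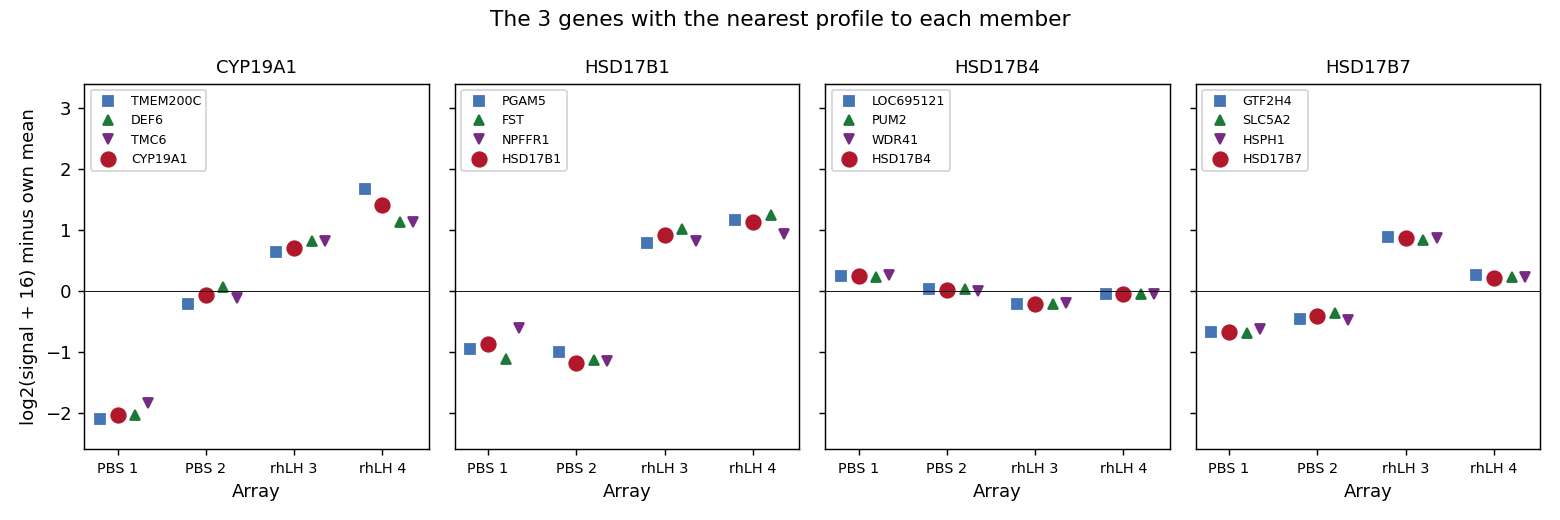
log2(signal + 16) minus each probe set's own mean over the 4 arrays, for the brightest probe set of each member gene (circles) and its 3 nearest genes (other markers, shifted sideways for legibility). HSD17B1 and HSD17B7 have both PBS arrays together below 0, whereas PBS replicate 1 lies apart for CYP19A1.

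Markers of the cells that a corpus luteum holds were summed on each array over all annotated genes of a list, kept or not, each by its brightest probe set. Granulosa-lutein markers had 10 of 14 genes kept, and CYP19A1 and HSD17B1 are 2 of them. Without these members the 8 others summed to 26740 and 72090 with PBS and to 70320 and 66240 with rhLH. Both rhLH sums thus lay slightly below that of PBS replicate 2. On every array but PBS replicate 1 most of this sum was INHA, an inhibin subunit. Its signal was 44827 on PBS replicate 2 and 36496 and 35762 on the rhLH arrays. Of the 8, 4 were higher with rhLH than on PBS replicate 2. With the members the sums were 28690 and 79570 with PBS and 83270 and 87400 with rhLH. The order of these arrays thus depended on which genes were summed. Among the 8 others, FST, NR5A2 and AMHR2 lay above both PBS arrays and 0 lay below, and their median log2 difference was 1.44 against PBS replicate 1 and 0.052 against the other PBS array. FST itself differed by 2.06 and 1.605.

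Theca-lutein markers (3 of 7 kept) had sums of 26420 and 61880 with PBS and of 55450 and 57610 with rhLH. Most of each sum was STAR, used above to check the tissue as a whole, so these sums do not single out theca-lutein cells. CYP17A1 from this list had signals of 1715 and 6687 with PBS and of 2296 and 5336 with rhLH. Endothelial markers (13 of 14 kept) summed to 23640 and 31860 with PBS and to 28110 and 31830 with rhLH. Leukocyte markers (6 of 14 kept) summed to 9536 and 34550 with PBS and to 23220 and 17020 with rhLH. Most of that sum was LYZ, the lysozyme gene, and without it the sums were 3415 and 6113 with PBS and 10010.0 and 4528 with rhLH, so that rhLH replicate 3 was then the highest. Of the 6 kept leukocyte markers, 4 were higher with rhLH than on PBS replicate 2, with a list median of 0.074 against that array. Fibroblast and pericyte markers (9 of 14 kept) summed to 40340 and 76720 with PBS and to 67150 and 75130 with rhLH. Erythrocyte markers (2 of 6 kept) summed to 1123 and 898.5 with PBS and to 995.6 and 1235 with rhLH. No kept marker was listed at 0, and the lowest signal was that of INHBB, an inhibin subunit, at 3.12 on PBS replicate 1. All sums but that of the erythrocytes were lowest on PBS replicate 1, as was CYP19A1 but not HSD17B1, and their part in the CYP19A1 difference was not tested.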

How the data were processed

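Corpus luteum RNA was measured on 4 Affymetrix rhesus macaque arrays. Mismatches of the probes to bonnet monkey transcripts were not examined. The deposited values are probe set intensities that the authors made with MAS5, per the submitters' processing notes; their scaling target is not given in the sources used here. The 2% trimmed mean was 500.0 on each array, so signals entered as log2(signal + 16) without further normalization. The 99 control probe sets were set aside. Probe sets with a mean log2 above the 40th percentile (signal 90.7) were kept, 31659 of 52766, and 10998 genes were read by their brightest kept probe set. The annotation gave 24956 probe sets 1 symbol, 361 several and 27449 none.

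Groups came from the sample titles. All kept probe sets were fitted together in limma 3.58.1 (R 4.3.3, lmFit and trended eBayes, two-sided). The threshold was 0.05 after Benjamini-Hochberg adjustment over them all. The fit was first run on simulated arrays with known changes, where only the case of equal noise on all arrays had to pass. The real arrays differ from that case, since PBS replicate 1 stood apart. The text names all member probe sets, the 2 genes of each pathway list with the smallest p, and the 3 nearest profiles; others are marked, apart from those used to check arrays, tissue, markers and filter. Members and lists were chosen with earlier results of these data known. Alternatives were quantile normalization, median centring, pseudocounts of 1 and 64, other filters, no trend, array weights, another summary per gene and leaving out each array. Precision is limited by the 2 arrays in each group.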

Additional observations from a re-analysis of the deposited data

How the results depend on the processing

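The count of 5 member probe sets with both rhLH arrays above both PBS arrays was 5 under every alternative but the omission of PBS replicate 2, where it was 6. It was taken over all member probe sets and rests on the order of the arrays. Pseudocounts, filters, trend and array weights cannot change that order, and omitting an array can only keep or raise the count. Only quantile normalization and centring could have lowered it. HSD17B4 set 2 ran from −0.15 without PBS replicate 1 to 0.61 without PBS replicate 2, against 0.23, and of the 7 tested member probe sets no other changed sign; HSD17B4 set 3, below the filter, was not followed through the alternatives. Leaving out 1 array at a time gave log2 differences of 1.13 to 3.10 for CYP19A1, 1.91 to 2.21 for HSD17B1, 0.77 to 1.41 for HSD17B7 set 1 and 1.38 to 2.10 for set 2, and limma calls of 0 to 4157 higher and 0 to 3870 lower. All calls came without PBS replicate 2. HSD17B1 was not tested at the 70th percentile filter. The 2-fold counts, 109 higher and 155 lower, became 189 to 3924 and 312 to 4631 with 1 array left out, 65 and 58 with a pseudocount of 64, 378 and 798 without a filter, and 42 and 19 with the filter at the 70th percentile; centring gave 175 higher. List medians with 1 array left out ran from −0.15 to 0.68 for other 17beta-hydroxysteroid dehydrogenases, −0.46 to 0.81 for estrogen breakdown, 0.058 to 0.82 for estrogen receptors, −0.10 to 0.34 for aromatase regulators, −0.38 to 0.20 for fatty acid elongation, −0.52 to 0.17 for peroxisomal beta-oxidation, 0.23 to 1.94 for granulosa-lutein markers, −0.048 to 1.12 for leukocyte markers, 0.014 to 0.82 for the steps before androgens, 0.09 to 0.56 for cholesterol synthesis, −0.066 to 1.101 for theca-lutein markers, −0.071 to 0.31 for endothelial markers, −0.16 to 0.76 for fibroblast and pericyte markers and 0.39 to 0.77 for erythrocyte markers. Quantile normalization took the steps before androgens from 0.36 to 0.0028, theca-lutein markers from 0.52 to 0.17 and fibroblast and pericyte markers from 0.30 to −0.016. Taking the median over the probe sets of each gene gave 0.089 for the steps before androgens and −0.051 for leukocyte markers. Leaving CYP19A1 and HSD17B1 out of the granulosa-lutein markers, chosen after seeing the data, took their median from 1.04 to 0.79, and leaving out LYZ took the leukocyte median from 0.35 to 0.74. Centring gave medians of 0.55 for estrogen receptors, 0.13 for fatty acid elongation, 0.16 for peroxisomal beta-oxidation and 0.81 for erythrocyte markers. Estrogen breakdown was 0.067 without a filter and erythrocyte markers −0.084 at the 70th percentile. Beyond what fewer arrays or probe sets give by construction, the cause was not tested. No paired analysis was possible because the groups share no replicate numbers.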

Other observations

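The 2 rhLH arrays ordered the members differently. CYP19A1 was higher on rhLH replicate 4 (20847 against 12669.9, a log2 difference of 0.72), while HSD17B7 sets 1 and 2 were higher on rhLH replicate 3, by 0.65 and 0.72. Over all kept probe sets the difference between these arrays had an SD of 0.587. Of the 14 kept cholesterol synthesis genes other than HSD17B7, 12 were higher on rhLH replicate 4, opposite to HSD17B7 sets 1 and 2, where 49% of kept genes were. SQLE, the squalene epoxidase, had signals of 626 and 1233 on rhLH replicates 3 and 4, and IDI1, the isopentenyl diphosphate isomerase, of 592 and 999. All 6 kept leukocyte markers were lower on rhLH replicate 4, TYROBP among them (4345 and 1359 on rhLH replicates 3 and 4). These genes were singled out after their values were seen, each order rests on 1 array per side, and it was not tested.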
